A study of Mus musculus with 16 samples.

Results

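The collagen chain genes of the mouse were followed in the aorta of 16 mice with and without surgical loss of kidney mass. The members were the protein-coding genes whose symbol is Col, a type number, the letter a and a chain number, and 44 of the 54532 genes in the count and FPKM tables met that rule. They comprised 11 fibrillar chains, 6 basement membrane chains, 9 fibril-associated chains (FACIT), 6 beaded filament chains, 3 short-chain network chains, 2 multiplexins, 4 transmembrane collagens, the anchoring fibril chain Col7a1 and 2 others (Col26a1 and Col28a1). The mice were male C57BL/6J, and the labels name 1 animal for each library of aorta tissue. Sham mice kept their kidneys, and their diet held 2% phosphorus with 2.5% protein. The 5/6 nephrectomy (5/6 Nx) groups, operated on at 12 weeks of age to leave them with chronic kidney disease, received the same diet (5/6 Nx-HPi-Lp), 2% phosphorus with 18% protein (5/6 Nx-HPi-Hp) or 0.3% phosphorus with 2.5% protein (5/6 Nx-LPi-Lp). Each group held 4 libraries, and the labels give 30 days on the diets. The groups therefore set nephrectomy against sham surgery on one diet, low against high protein at high phosphorus, and high against low phosphorus at low protein. The diets also differed in their starch and in the calcium, sodium and potassium salts that supplied the phosphorus. Sham mice on the other diets were not analysed here, and the 3 comparisons of 5/6 Nx-HPi-Lp share its 4 libraries.

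Collagens are secreted proteins whose chains wind around each other into a stiff helix, which requires glycine at the start of every repeat of 3 residues. Fibrillar chains carry this repeat in long unbroken stretches and assemble into the fibrils that bear load in the adventitia and media of the artery. Type IV chains form the sheet-like basement membrane under endothelium and around each smooth muscle cell, and their helix is broken in many places. FACIT and beaded filament collagens link fibrils to each other and to cells, and the multiplexins sit at basement membranes.

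The repeat could be read from the coding sequences, which are shown for chains that rose and chains that fell in 5/6 Nx-HPi-Lp. In the longest coding transcript of each chain (GENCODE vM21, GRCm38, sense strand), glycine codons, written GGN, opened 216 to 344 triplets in an unbroken row in the 11 fibrillar chains, with the shortest rows in Col24a1 (216) and Col27a1 (217). In the 6 type IV chains the longest such row held 39 to 66 triplets, and 22 to 27 separate rows of at least 5 triplets were found. Codons 675 to 692, 680 to 697 and 1034 to 1051, from the middle of the longest row, are given for Col1a1, Col3a1 and Col11a1 in that order, and the end of the longest row with the codons after it for Col4a5 (codons 1366 to 1383) and Col4a6 (948 to 965). Capitals mark every GGN codon.
Col1a1: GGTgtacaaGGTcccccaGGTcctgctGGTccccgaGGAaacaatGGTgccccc
Col3a1: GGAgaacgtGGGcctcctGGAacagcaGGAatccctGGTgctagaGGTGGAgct
Col11a1: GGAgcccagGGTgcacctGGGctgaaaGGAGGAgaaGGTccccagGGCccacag
Col4a5: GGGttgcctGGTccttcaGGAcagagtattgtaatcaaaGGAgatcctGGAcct
Col4a6: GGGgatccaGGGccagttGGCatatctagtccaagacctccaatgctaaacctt
In the fibrillar stretches a capital codon returned at every step of 3 codons, whereas in Col4a5 and Col4a6 the step was lost within the stretch.

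Library totals ran from 13659525 to 57276915 counts. Replicates 2 and 3 of 5/6 Nx-HPi-Lp were the deepest libraries. Replicate 2 held the highest level of its group for 24 of the 44 chains and for 8 of the 11 fibrillar chains. Replicate 4 did so for 23 chains (6 fibrillar) in 5/6 Nx-HPi-Hp and for 23 (7 fibrillar) in 5/6 Nx-LPi-Lp. Results that turn on replicate 2 of 5/6 Nx-HPi-Lp are given with and without it. Markers of other cells moved with the groups. The summed level of 7 smooth muscle markers was 21082 to 25053 CPM (counts scaled to a common library size after TMM over all 16 libraries) in Sham and 2294 to 5201 in 5/6 Nx-HPi-Lp, and 7 of 7 were lower, whereas 8 fibroblast markers summed to 2482 to 3696 in Sham and 2073 to 3132 in 5/6 Nx-HPi-Lp, with 2 higher and 1 lower (median log2 fold change 0.25). Of the same fibroblast markers 2 were higher and 0 lower than in 5/6 Nx-HPi-Hp (2316 to 3068 CPM, median 0.53), and 4 were higher and 0 lower than in 5/6 Nx-LPi-Lp (1642 to 2366 CPM, median 1.07). Macrophage markers were higher (6 of 6; 183 to 284 against 632 to 2307 CPM), as were those of adipocytes (6 of 7; 563 to 1438 against 5706 to 11643), Schwann cells (6 of 6; 27.7 to 37.8 against 62.3 to 594) and sympathetic neurons (5 of 5 tested; 12.3 to 15.3 against 41.2 to 1430). Skeletal muscle markers were lower than in Sham (4 of 4 tested; 5.98 to 62.2 against 1.60 to 3.58), as were those of thymocytes (3 of 4 tested; 6.44 to 40.3 against 0.136 to 2.46). Lung epithelium markers were higher (1 of 1 tested; 0.390 to 1.18 against 5.59 to 70.4, highest in replicate 2). So were pancreas acinar markers (1 of 1 tested; 4.72 to 6.66 against 14.1 to 125, highest in replicate 4), which were at 12.5 to 23.9 CPM in 5/6 Nx-LPi-Lp. The mitochondrial share of counts was 4.18% to 6.34% in Sham and 19.3% to 27.1% in 5/6 Nx-HPi-Lp. It was 9.50% to 29.0% in 5/6 Nx-HPi-Hp and 14.2% to 21.1% in 5/6 Nx-LPi-Lp. Adipocyte markers were also higher than in Sham in each of those groups (7 of 7; 1343 to 11894 and 2760 to 7648 CPM). So were Schwann cell markers (6 of 6 and 5 of 6). Heart muscle markers were at 5.04 to 27.6 CPM in Sham and 16.4 to 67.2 in 5/6 Nx-HPi-Lp (1 of 3 tested higher). They were at 18.4 to 601 CPM in 5/6 Nx-HPi-Hp (3 of 3 tested higher than in Sham) and 11.8 to 4680 in 5/6 Nx-LPi-Lp (2 of 3). Skeletal muscle markers reached 386 CPM in 5/6 Nx-LPi-Lp, with 0 of 5 called against Sham. The smooth muscle sum was 6954 to 22293 CPM in 5/6 Nx-HPi-Hp and 7837 to 17878 in 5/6 Nx-LPi-Lp, with 6 of 7 and 7 of 7 markers lower in 5/6 Nx-HPi-Lp than there, and macrophage markers were higher than in either (6 of 6 each). The part of these differences in the collagen results was not tested. In bulk aorta tissue, fewer cells of a type and less RNA per cell cannot be told apart.

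After nephrectomy on the high phosphorus, low protein diet most fibrillar chains were higher, and several basement membrane chains lower, than after sham surgery. Against Sham, 16 of the 39 chains tested were higher and 6 were lower in 5/6 Nx-HPi-Lp, a call requiring an adjusted p of at most 0.05 and a log2 fold change of at least 1 in size in edgeR's quasi-likelihood test. Among all genes tested in this comparison 15.0% were called higher and 7.18% lower. The median log2 fold change was 0.57 over the chains and -0.00 over all genes tested. Scaling by total count, which put the median of all genes at -0.14, gave 16 higher and 7 lower. Without replicate 2 of 5/6 Nx-HPi-Lp, Col1a2 and Col5a2 were no longer called higher, and Col4a4 was no longer called lower. Of the fibrillar chains 8 of 11 rose and none fell (median 2.23), and of the type IV chains 3 of 6 fell and none rose (median -1.06). The remaining 8 calls of higher level were Col12a1, Col16a1, Col6a4, Col6a5, Col8a1, Col7a1, Col13a1 and Col28a1, and the remaining 3 of lower level were Col19a1, Col6a6 and Col18a1. Col11a1, Col24a1, Col6a5, Col13a1, Col6a4 and Col28a1 had 15, 7, 47, 22, 32 and 80 counts over the 4 Sham libraries. They passed the count filter only with the 5/6 Nx-HPi-Lp libraries, so their place among the 16 is a description only.

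The same group was set against nephrectomised mice given more protein. Against 5/6 Nx-HPi-Hp, 9 of 39 chains tested were higher and 0 lower by edgeR, beside 5.01% and 3.11% of all genes tested. By DESeq2 2 chains were lower, Col4a6 and Col6a6, and at an unadjusted p under 0.05 in edgeR, with no fold limit and in either direction, 17 of 39 chains passed beside 30.9% of all genes. Fibrillar chains accounted for 7 of the 9, the others being Col12a1 and Col8a1, and the median over the chains was 0.29 on the log2 scale against 0.01 over all genes. Leaving out replicate 2 of 5/6 Nx-HPi-Hp reduced the 9 to 5. Without replicate 2 of 5/6 Nx-HPi-Lp, Col1a1 and Col1a2 were lost. Leaving out its replicates 2 and 3 together, a setting added after the data were seen, gave 5. There Col1a1, Col1a2, Col3a1, Col5a2 and Col12a1 were lost, and Col28a1, not among the 9, was gained.

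The last comparison of this group was with nephrectomised mice on the diet lower in phosphorus. Against 5/6 Nx-LPi-Lp, 15 of 38 chains tested were higher and 1, Col4a6, was lower, beside 7.90% and 3.98% of all genes tested. Fibrillar chains were 9 of the 15, and Col12a1, Col14a1, Col16a1, Col6a3, Col8a1 and Col28a1 made up the rest. Col2a1, Col11a1 and Col24a1 passed the count filter only with the 5/6 Nx-HPi-Lp libraries, so their place among the 15 is a description only. The median was 0.72 over the chains and -0.02 over all genes. Without replicate 2 of 5/6 Nx-HPi-Lp 11 chains were higher.

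Across the 3 comparisons, 9 of the 37 chains tested in each were higher every time (24.3%, beside 3.96% of the 15676 genes tested in each). They were the fibrillar chains Col1a1, Col1a2, Col3a1, Col5a2, Col5a3, Col11a1 and Col24a1, the FACIT chain Col12a1 and the network chain Col8a1. Because the 5/6 Nx-HPi-Lp libraries enter each comparison, these counts are not independent of one another. Without replicate 2 of 5/6 Nx-HPi-Lp, Col1a1, Col1a2 and Col5a2 were no longer called in all 3 comparisons. Col24a1 in each comparison, and Col11a1 against Sham and against 5/6 Nx-LPi-Lp, passed the count filter through 5/6 Nx-HPi-Lp, so their place among the 9 is a description only. With at least 10 counts required in every library, the higher calls were 11 against Sham, 8 against 5/6 Nx-HPi-Hp and 13 against 5/6 Nx-LPi-Lp. The chains Col9a2, Col10a1, Col25a1 and Col26a1 had too few counts to be tested in any of them, with at most 105 counts over the 4 libraries of 5/6 Nx-HPi-Lp.

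**Figure D1:**
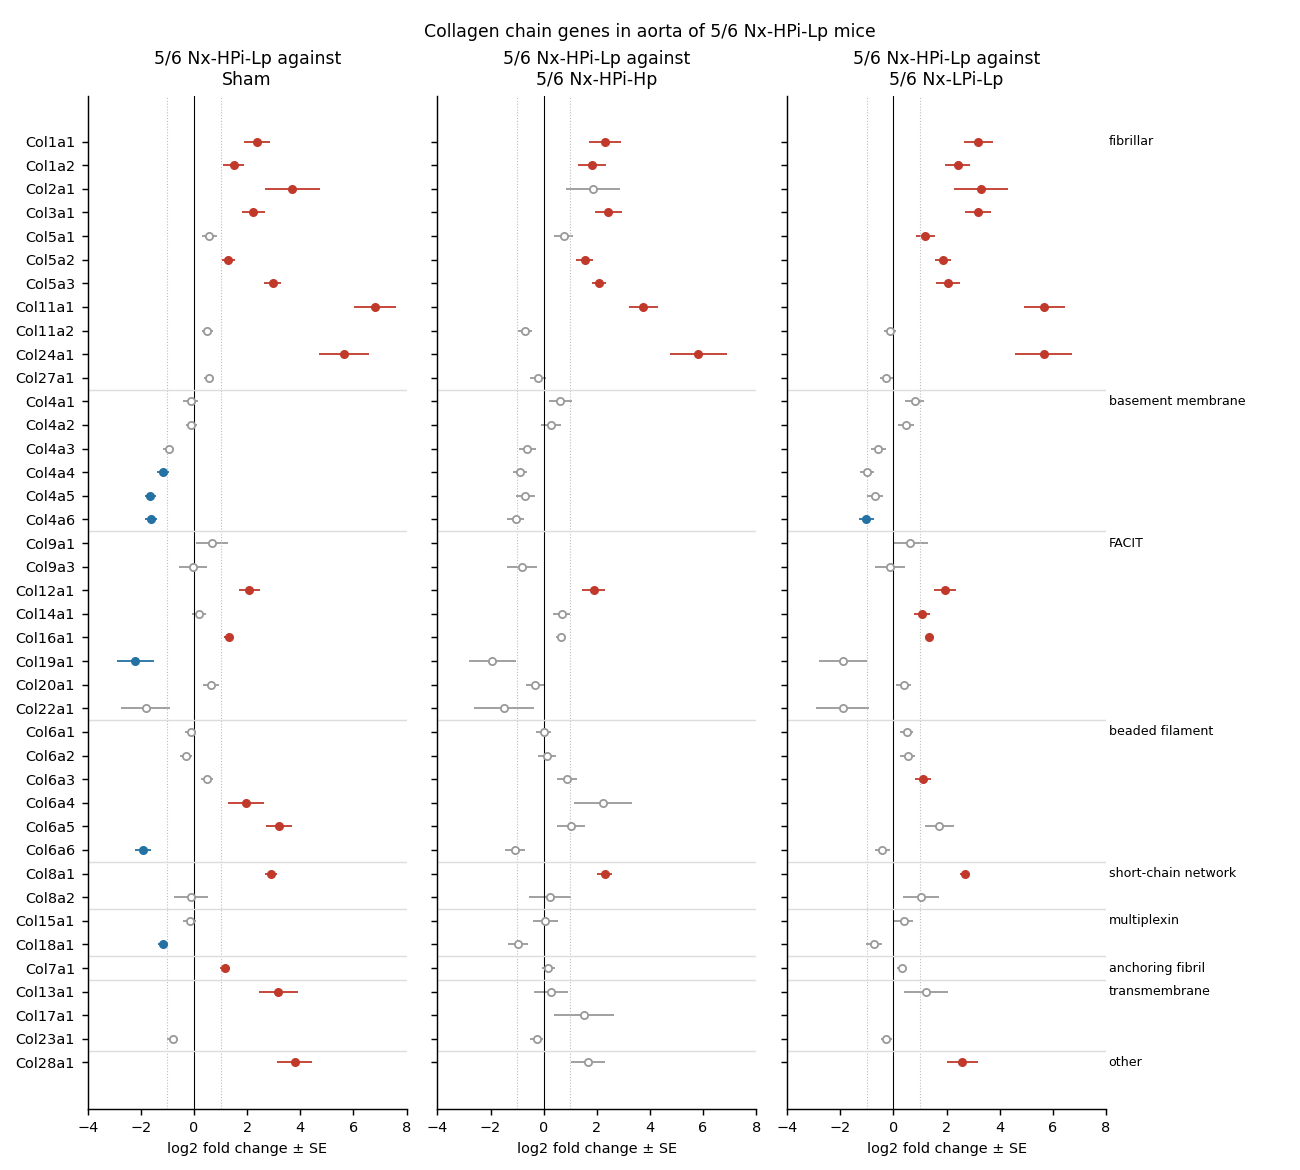
Log2 fold change (x axis, bars are the standard error derived from the test statistic) of each tested collagen chain gene (y axis, grouped by type) in 5/6 Nx-HPi-Lp against each of the other groups. Filled red points were called higher, filled blue points lower and open grey points neither; fibrillar chains such as Col11a1 (6.81 against Sham) lie to the right and Col4a4, Col4a5 and Col4a6 to the left of 0.

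Type I and type III collagens, the main fibrils of the arterial wall, are built from Col1a1, Col1a2 and Col3a1. Col1a1 (ENSMUSG00000001506) was at 592 to 1014 CPM in Sham and at 1552, 9599, 3335 and 3168 CPM in 5/6 Nx-HPi-Lp. Its levels were 892, 679, 362 and 1486 CPM in 5/6 Nx-HPi-Hp and 359, 313, 512 and 711 CPM in 5/6 Nx-LPi-Lp, so every 5/6 Nx-HPi-Lp library lay above every other library. The log2 fold changes were 2.37 ± 0.48 (SE, adjusted p = 0.0032) against Sham, 2.31 ± 0.60 (0.033) against 5/6 Nx-HPi-Hp and 3.20 ± 0.55 (0.0057) against 5/6 Nx-LPi-Lp. Without replicate 2 the difference from Sham was 1.69 and remained called, while that from 5/6 Nx-HPi-Hp was 1.62 with an adjusted p of 0.069 by edgeR.

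Col3a1, the single chain of type III collagen, followed with 1914, 11617, 4794 and 4386 CPM in 5/6 Nx-HPi-Lp. The other groups held 985 to 1291 CPM (Sham), 601 to 1403 (5/6 Nx-HPi-Hp) and 473 to 821 (5/6 Nx-LPi-Lp), again without overlap. Fold changes on the log2 scale were 2.23 ± 0.44, 2.44 ± 0.52 and 3.18 ± 0.50 (adjusted p = 0.0029, 0.017 and 0.0041), and the second was no longer called without replicate 2 of 5/6 Nx-HPi-Hp (adjusted p = 0.060 in edgeR). Col1a2, the partner of Col1a1 in the type I molecule, was at 1599, 7734, 2906 and 3099 CPM in 5/6 Nx-HPi-Lp against 1191 to 1462 in Sham. Its range of 519 to 1777 CPM in 5/6 Nx-HPi-Hp reached into the 5/6 Nx-HPi-Lp range, and 5/6 Nx-LPi-Lp lay at 527 to 934. Col1a2 rose by 1.49 ± 0.39, 1.82 ± 0.52 and 2.42 ± 0.46 in the 3 comparisons (adjusted p = 0.012, 0.047 and 0.0087). Without replicate 2 of 5/6 Nx-HPi-Lp it was 0.93 above Sham, under the fold limit, and 1.24 above 5/6 Nx-HPi-Hp (adjusted p = 0.11). The calls of Col1a1 and Col1a2 against 5/6 Nx-HPi-Hp were each lost on leaving out any of 6 of the 8 libraries.

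Type V collagen nucleates fibrils, and 2 of its 3 chains were called in each comparison. Col5a2 was at 209.9 to 235 CPM in Sham, at 325, 932, 487 and 508 in 5/6 Nx-HPi-Lp, at 136 to 239 in 5/6 Nx-HPi-Hp and at 131 to 179 in 5/6 Nx-LPi-Lp. It rose in each comparison (1.30 ± 0.26, 1.55 ± 0.32 and 1.86 ± 0.29), though without replicate 2 the difference from Sham was 0.97, just under the fold limit. Col5a3, the minor chain, rose more, from 10.7 to 23.7 CPM in Sham to 102, 206, 99.5 and 188 CPM (2.96 ± 0.32, adjusted p = 1.1e-04), with 29.5 to 42.3 CPM in 5/6 Nx-HPi-Hp and 14.2 to 61.0 in 5/6 Nx-LPi-Lp. Col5a1, the chain of every type V molecule, was at 375 to 508 CPM in Sham and 411 to 1218 in 5/6 Nx-HPi-Lp, a difference of 0.58 ± 0.29 on the log2 scale that missed the threshold (adjusted p = 0.14). It was called only against 5/6 Nx-LPi-Lp (1.21 ± 0.35, adjusted p = 0.037; 226 to 412 CPM), and leaving out any of 6 of the 8 libraries ended that call (0.77 without replicate 2 of 5/6 Nx-HPi-Lp).

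The largest fold changes belonged to chains that were almost undetected in the other groups. Col11a1, which joins type V chains in fibrils and is abundant in cartilage, was at 0, 0.295, 0.260 and 0.0762 CPM in Sham and at 10.6, 40.9, 10.8 and 10.4 CPM in 5/6 Nx-HPi-Lp. Its 3030 counts against 15 in the Sham libraries gave a ratio of 156 (95% exact interval 94.6 to 279.6, counting error only), and the fitted log2 fold change was 6.81 ± 0.78 (adjusted p = 1.5e-04). Levels were 0.759 to 2.02 CPM in 5/6 Nx-HPi-Hp and 0 to 0.546 in 5/6 Nx-LPi-Lp, and both differences were called (3.75 ± 0.56 and 5.68 ± 0.77). Leaving out replicate 2 kept each of these calls, with 6.06 against Sham. Col24a1, a fibrillar chain first known from developing bone and cornea, had 4.16, 8.54, 1.81 and 0.718 CPM in 5/6 Nx-HPi-Lp and 621 counts in all. The other groups held 7, 4 and 5 counts, which gave ratios of 68.6 (33.1 to 171), 74.8 (29.1 to 275) and 65.6 (27.9 to 203) against Sham, against 5/6 Nx-HPi-Hp and against 5/6 Nx-LPi-Lp. Col2a1, the main collagen of cartilage, was at 1.66, 5.44, 1.18 and 31.4 CPM in 5/6 Nx-HPi-Lp, above the 0.434 to 1.10 of Sham in every library and far higher in replicate 4 than in the others. It was called against Sham (3.71 ± 1.02, adjusted p = 0.015; still called without replicate 4, at 1.88) and against 5/6 Nx-LPi-Lp (3.29 ± 1.02, adjusted p = 0.049; 1.48 without replicate 4), and not against 5/6 Nx-HPi-Hp (1.87 ± 1.02). The call against 5/6 Nx-LPi-Lp ended on leaving out any of 6 of the 8 libraries. Of 9 chondrocyte markers 6 were tested against Sham, with 2 higher and 2 lower, and of 8 osteoblast markers 5 were tested, with 2 higher and 1 lower. The summed chondrocyte level was 83.7 to 107 CPM in Sham and 96.3 to 276 in 5/6 Nx-HPi-Lp, and the summed osteoblast level 23.7 to 31.5 and 31.5 to 72.1 CPM.

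Col11a2 and Col27a1 were the fibrillar chains not called in any of the 3 comparisons. Their log2 fold changes against Sham were 0.51 ± 0.20 and 0.57 ± 0.20, and against 5/6 Nx-HPi-Hp -0.71 ± 0.26 and -0.22 ± 0.31.

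**Figure D2:**
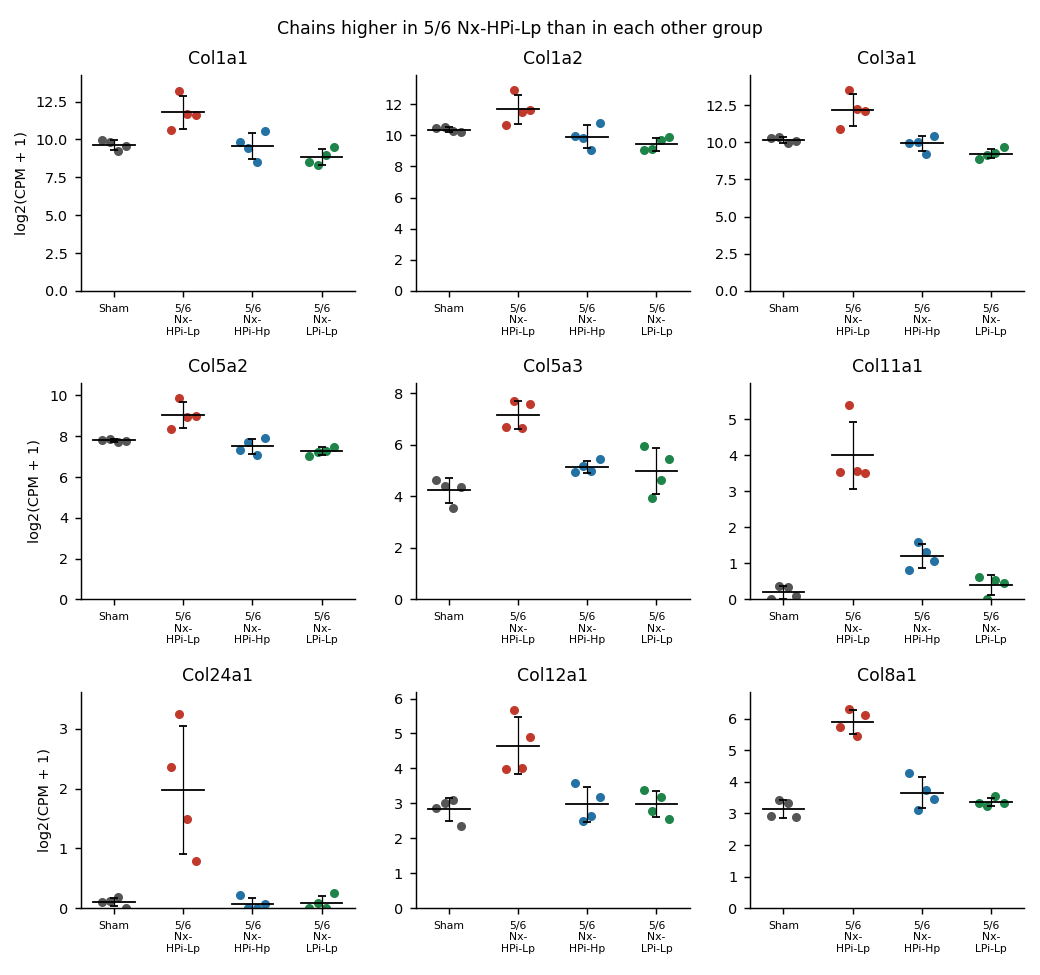
Level of the 9 chains called higher against each other group, as log2(CPM + 1) on the y axis, in the 4 groups on the x axis. Points are libraries (replicates 1 to 4 from left to right), the horizontal line is the mean and the bar its SD; the 5/6 Nx-HPi-Lp libraries are uppermost except for Col1a2, where 1 library of 5/6 Nx-HPi-Hp (1777 CPM) lies above the lowest (1599 CPM).

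Per unit of transcript length, the deposited FPKM showed how the makeup of collagen mRNA differed. In Sham, Col18a1 stood highest at 279.5 ± 28.8 FPKM (SD, n = 4), above Col1a1 (124 ± 28.0), Col3a1 (118 ± 14.8), Col6a1 (116 ± 20.3), Col4a1 (109.8 ± 14.2), Col1a2 (105 ± 10.2) and Col4a2 (97.6 ± 12.5), whose ranges overlapped one another. In 5/6 Nx-HPi-Lp the order was Col1a1 (659.8 ± 524), Col3a1 (568 ± 410.0), Col1a2 (303 ± 209) and Col18a1 (128 ± 33.0), and the ranges of Col1a1 and Col3a1 overlapped. Fibrillar chains made up 33.4% ± 0.91 of the summed FPKM of all 44 chains in Sham and 68.4% ± 9.90 in 5/6 Nx-HPi-Lp. The lowest 5/6 Nx-HPi-Lp library (55.8%) lay above the highest of the others (39.6%, in 5/6 Nx-HPi-Hp), and the mean without replicate 2 was 64.7%. The share was 37.1% ± 2.02 in 5/6 Nx-HPi-Hp and 31.4% ± 1.96 in 5/6 Nx-LPi-Lp. The share of the multiplexins was 25.2% ± 0.78 in Sham and 8.82% ± 4.61 in 5/6 Nx-HPi-Lp, and that of the basement membrane chains 22.4% ± 0.85 and 10.4% ± 2.46. The sum itself was 1290 ± 152 FPKM in Sham and 2356 ± 1375 in 5/6 Nx-HPi-Lp, a ratio of 1.83 that was 1.31 without replicate 2, and the lowest library of 5/6 Nx-HPi-Lp (1209) was within the Sham range. In 5/6 Nx-HPi-Hp and in 5/6 Nx-LPi-Lp the sums were 1099 ± 484 and 837 ± 256 FPKM. The shares thus separated 5/6 Nx-HPi-Lp from Sham where the sum did not.

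**Figure D3:**
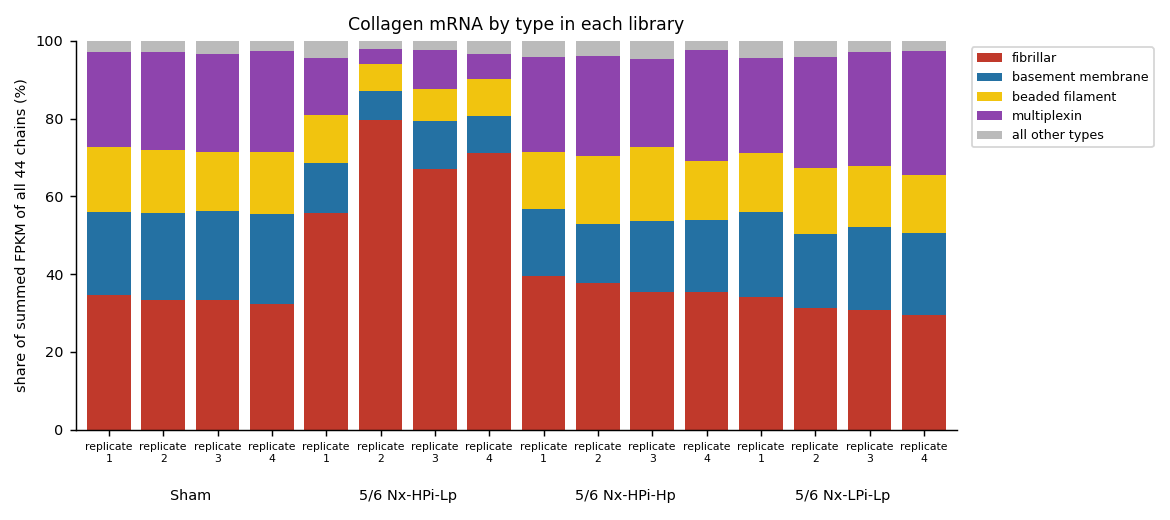
Share of the summed FPKM of the 44 collagen chain genes (y axis, percent) taken by each type, in each of the 16 libraries (x axis). The fibrillar part is 55.8% to 79.7% in the 4 libraries of 5/6 Nx-HPi-Lp and at most 39.6% in the other 12.

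Ratios between chains, of one collagen type except for Col3a1 to Col1a1, were taken within each library. The FPKM ratio of Col1a1 to Col1a2 was 0.918 to 1.39 in Sham, 1.84 to 2.35 in 5/6 Nx-HPi-Lp, 1.32 to 1.68 in 5/6 Nx-HPi-Hp and 1.08 to 1.44 in 5/6 Nx-LPi-Lp, so 5/6 Nx-HPi-Lp did not overlap the others. The length used for Col1a2 (12426 bases) was well above that for Col1a1 (6563 bases). With the counts of the whole gene divided by the coding length instead, the ratio was 0.458 to 0.692 in Sham and 0.916 to 1.17 in 5/6 Nx-HPi-Lp. This changes the ratio by the same factor in every library, so it cannot test the separation of the groups. In type V collagen, Col5a2 stood to Col5a1 as 0.390 to 0.495 in Sham, 0.677 to 0.833 in 5/6 Nx-HPi-Lp, 0.389 to 0.484 in 5/6 Nx-HPi-Hp and 0.386 to 0.534 in 5/6 Nx-LPi-Lp. The ratio of Col5a1 to Col5a3 was 17.2 to 28.2 in Sham and 2.30 to 4.75 in 5/6 Nx-HPi-Lp, and the 5/6 Nx-LPi-Lp range of 2.97 to 13.9 overlapped the latter. Col3a1 to Col1a1, by contrast, was 0.838 to 1.11 in Sham and 0.809 to 0.961 in 5/6 Nx-HPi-Lp.

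**Figure D4:**
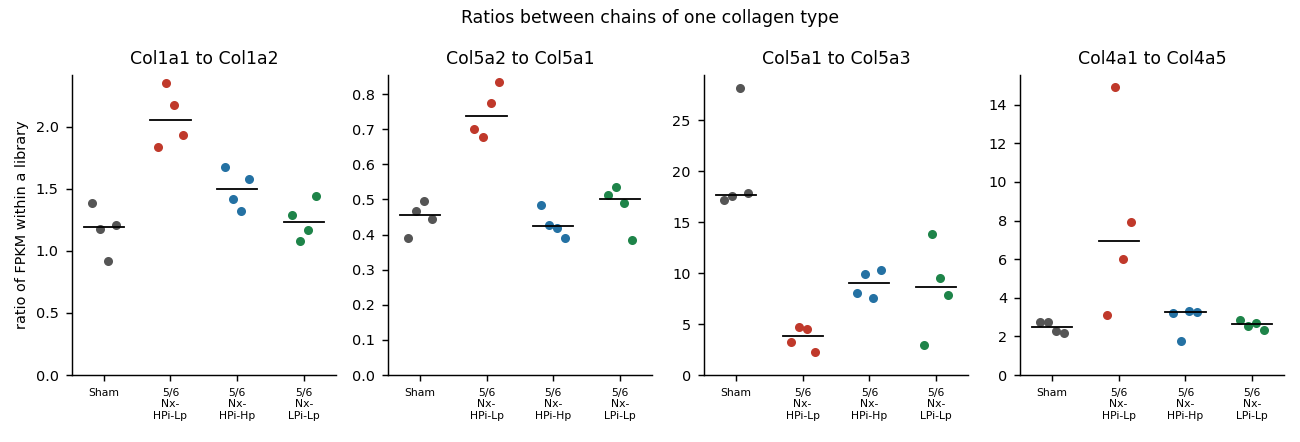
Ratio of FPKM between chains within each library (y axis) in the 4 groups (x axis), with points for libraries and a line at the median. 5/6 Nx-HPi-Lp lies above every other group for Col1a1 to Col1a2 (1.84 to 2.35) and Col5a2 to Col5a1 (0.677 to 0.833).

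Among the type IV chains, Col4a1 and Col4a2, which make the common basement membrane network, were not called in any comparison. Col4a1 was at 882, 923, 681 and 803 CPM in Sham and at 412, 1285, 845 and 596 in 5/6 Nx-HPi-Lp (-0.12 ± 0.29, adjusted p = 0.76). Col4a2 was at 677, 744, 546 and 626 and at 412, 915, 671 and 513 CPM (-0.10 ± 0.22, adjusted p = 0.74). For both the 5/6 Nx-HPi-Lp libraries spread to either side of Sham. The ranges were 288 to 888 and 294 to 632 CPM for Col4a1 and of 303 to 884 and 324 to 626 CPM for Col4a2 in 5/6 Nx-HPi-Hp and in 5/6 Nx-LPi-Lp.

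Col4a5 and Col4a6, whose products form a network found around smooth muscle, fell. Col4a5 was at 292, 300.1, 271 and 334 CPM in Sham and at 120, 77.6, 127 and 67.6 in 5/6 Nx-HPi-Lp (-1.65 ± 0.21, adjusted p = 2.4e-04). Col4a6 was at 249, 234, 264 and 254 and at 101, 68.4, 116 and 49.9 CPM (-1.62 ± 0.23, adjusted p = 5.2e-04). All 4 libraries of 5/6 Nx-HPi-Lp were below every Sham library for both genes. In 5/6 Nx-HPi-Hp and in 5/6 Nx-LPi-Lp the ranges were 78.2 to 243 and 103 to 245 CPM for Col4a5, overlapping 5/6 Nx-HPi-Lp, and 121 to 241 and 126 to 229 CPM for Col4a6, above it. Against those groups Col4a5 was not called (-0.69 ± 0.35 and -0.68 ± 0.31). Col4a6 was called against 5/6 Nx-LPi-Lp (-1.03 ± 0.28, adjusted p = 0.033) and by edgeR missed the threshold against 5/6 Nx-HPi-Hp (-1.06 ± 0.32, adjusted p = 0.053), where DESeq2 and 3 other of the 11 alternative settings called it lower. The former call was lost on leaving out replicate 2 (-0.94) or 4 (-0.83) of 5/6 Nx-HPi-Lp, or replicate 3 (-0.99) or 4 (-0.82) of 5/6 Nx-LPi-Lp. The FPKM ratio of Col4a1 to Col4a5 was 2.16 to 2.77 in Sham and 3.10 to 14.9 in 5/6 Nx-HPi-Lp, whereas Col4a5 to Col4a6 was 1.22 to 1.56 and 1.30 to 1.61. Smooth muscle markers were lower in the same libraries, with the ranges given above, and their part in the fall of these chains was not tested.

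Col4a3 and Col4a4, best known from the kidney filter, were at low levels. Col4a4 fell from 38.2 to 43.1 CPM in Sham to 13.1 to 26.2 (-1.16 ± 0.22, adjusted p = 0.0021). The call rested on its margin over the fold limit, which was lost without replicate 2 of 5/6 Nx-HPi-Lp (-0.997). Col4a3 was at 14.9 to 15.1 and 5.93 to 10.2 CPM, below Sham in every library, and at -0.96 ± 0.19 it passed the adjusted p (0.0030) but not the fold limit, which it did pass without replicate 1 (-1.01) or 3 (-1.09) of 5/6 Nx-HPi-Lp. Against 5/6 Nx-HPi-Hp and against 5/6 Nx-LPi-Lp, Col4a4 likewise passed the adjusted p but not the fold limit (-0.89 ± 0.25 and -0.99 ± 0.26, adjusted p = 0.043 and 0.027).

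**Figure D5:**
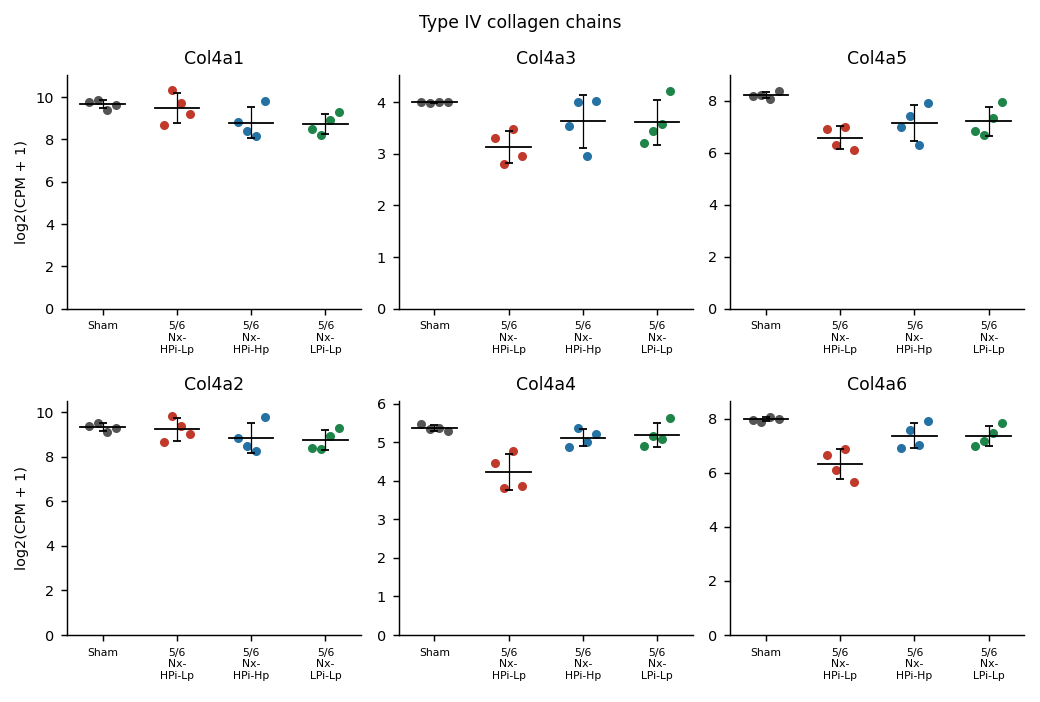
Level of the 6 type IV collagen chains as log2(CPM + 1) on the y axis in the 4 groups on the x axis, with points for libraries (replicates 1 to 4 from left to right), lines for means and bars for SD. Col4a5 and Col4a6 of 5/6 Nx-HPi-Lp lie below Sham (67.6 to 127 against 271 to 334 CPM for Col4a5), while Col4a1 and Col4a2 overlap.

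The type IV genes lie in head to head pairs, each pair transcribed outward from a shared stretch. In the files' coordinates (mm10) Col4a1 (chromosome 8, 11198423 to 11312826, minus strand) overlapped Col4a2 (11312805 to 11449287, plus strand) by 22 bases at their starts. Col4a5 and Col4a6 on chromosome X were 1308 bases apart, and Col4a3 and Col4a4 on chromosome 1 were 71 bases apart. The bases between the last pair, intergenic in the annotation, are shown because they lie between a chain that was called and one just under the fold limit (RefSeq, GRCm38.p6, chr1:82586850-82586920, minus strand, in the direction of Col4a4).
Col4a4: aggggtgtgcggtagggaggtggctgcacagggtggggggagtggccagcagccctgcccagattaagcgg
Promoter windows of 300 bases around the start were matched for 35 of the 44 genes, with 38 windows in all. The letters TATAA were searched on both strands and were found in 18.4% of the 38 windows and 24.9% of all 32851 windows. The letters CCAAT were found in 34.2% and 37.4%, and the letters GGGCGG in 60.5% and 35.7%. Of the 9 chains higher in each comparison 6 had a window, of which 1 held TATAA, 3 held CCAAT and 4 held GGGCGG. The 120 bases before the start are given for Col3a1 (chr1:45311418-45311537, plus strand), Col11a1 (chr3:114030420-114030539, plus strand) and Col24a1 (chr3:145292352-145292471, plus strand), since these chains rose together; capitals mark any of these letters on either strand, and TATAA in Col3a1 overlaps its own reverse match.
Col3a1: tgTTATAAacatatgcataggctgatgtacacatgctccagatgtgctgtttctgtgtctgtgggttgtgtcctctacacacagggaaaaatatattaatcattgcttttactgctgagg
Col11a1: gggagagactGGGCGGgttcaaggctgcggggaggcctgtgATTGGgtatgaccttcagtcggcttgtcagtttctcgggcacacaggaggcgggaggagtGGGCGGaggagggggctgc
Col24a1: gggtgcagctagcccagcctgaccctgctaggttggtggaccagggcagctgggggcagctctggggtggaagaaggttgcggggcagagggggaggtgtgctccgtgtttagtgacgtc
No motif was found in all 3 stretches, which says only that these letters are not in these windows.

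Col18a1, the precursor of endostatin and the most abundant chain of the Sham aorta, was lower than in Sham. It was at 2053, 2138, 1681 and 2003 CPM in Sham and at 1045, 800.3, 1148 and 634 in 5/6 Nx-HPi-Lp (-1.16 ± 0.19, adjusted p = 0.0012), without overlap. In 5/6 Nx-HPi-Hp and in 5/6 Nx-LPi-Lp it was at 866 to 2899 and 929 to 2314 CPM, which overlapped 5/6 Nx-HPi-Lp, and neither difference was called (-0.96 ± 0.37 and -0.74 ± 0.31). Col15a1, the other multiplexin, was not called in any comparison (-0.16 ± 0.25 against Sham).

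Among the network and FACIT chains, Col8a1 and Col12a1 were higher in each comparison. Col8a1, a short-chain collagen of vessel walls and of Descemet's membrane in the eye, was at 6.51, 9.73, 9.02 and 6.48 CPM in Sham and at 52.7, 78.2, 43.4 and 68.3 in 5/6 Nx-HPi-Lp. With 7.64 to 18.4 CPM in 5/6 Nx-HPi-Hp and 8.47 to 10.7 in 5/6 Nx-LPi-Lp, the groups did not overlap, and the log2 fold changes were 2.89 ± 0.22, 2.29 ± 0.28 and 2.69 ± 0.20 (adjusted p = 2.1e-05, 0.0031 and 3.0e-04). These calls held on leaving out any 1 library. Its partner Col8a2 was not called (-0.13 ± 0.64 against Sham). Col12a1, a FACIT chain at the surface of type I fibrils, rose by 2.08 ± 0.39, 1.88 ± 0.43 and 1.94 ± 0.42. Its difference from 5/6 Nx-HPi-Hp was lost without replicate 4 of 5/6 Nx-HPi-Lp (adjusted p = 0.063) or without replicate 2 or 3 of 5/6 Nx-HPi-Hp (0.072 and 0.059). Col16a1 rose against Sham (1.30 ± 0.16) and against 5/6 Nx-LPi-Lp (1.35 ± 0.17), and against 5/6 Nx-HPi-Hp it was 0.66 ± 0.19 higher, under the fold limit. Col14a1, also fibril-associated, was called only against 5/6 Nx-LPi-Lp (1.09 ± 0.30), a call lost on leaving out any of 5 libraries. Col19a1 was at 1.79 to 2.34 CPM in Sham and 0 to 0.725 in 5/6 Nx-HPi-Lp (-2.21 ± 0.69, adjusted p = 0.027), and leaving out any 1 Sham library raised its adjusted p to between 0.060 and 0.073.

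The beaded filament collagens of type VI split between abundant and rare chains. Col6a1 was at 604, 554, 399 and 489 CPM in Sham and at 375, 723, 414 and 437 in 5/6 Nx-HPi-Lp (-0.12 ± 0.21), with 363 to 669.8 and 248 to 459 CPM in 5/6 Nx-HPi-Hp and in 5/6 Nx-LPi-Lp. Col6a2 (-0.31 ± 0.23) and Col6a3 (0.48 ± 0.23) were likewise not called against Sham, and Col6a3 was called against 5/6 Nx-LPi-Lp (1.12 ± 0.30) but not on leaving out any of 5 libraries (0.80 without replicate 2 of 5/6 Nx-HPi-Lp). The rare chains Col6a4, Col6a5 and Col6a6 lie next to each other on chromosome 9, on 1 strand, and moved in opposite directions. Col6a5 was at 0.229 to 0.885 CPM in Sham and at 5.38, 3.42, 2.72 and 6.66 in 5/6 Nx-HPi-Lp (3.20 ± 0.50, adjusted p = 7.6e-04). Col6a6 was at 7.38 to 20.3 CPM and at 2.69, 5.02, 4.10 and 3.59 (-1.92 ± 0.32, adjusted p = 0.0011). By edgeR neither was called against 5/6 Nx-HPi-Hp or 5/6 Nx-LPi-Lp, though DESeq2 and 1 other of 11 alternative settings called Col6a6 lower than in 5/6 Nx-HPi-Hp (edgeR -1.07 ± 0.37), and DESeq2 and 4 other of 9 called Col6a5 higher than in 5/6 Nx-LPi-Lp (edgeR 1.72 ± 0.54, adjusted p = 0.051). In those groups Col6a5 stood at 0.924 to 3.99 and 0.546 to 2.78 CPM and Col6a6 at 4.45 to 12.2 and 4.14 to 5.78. Col6a4 was called higher against Sham (1.96 ± 0.67, adjusted p = 0.038), with overlapping groups, and leaving out any of 6 libraries ended the call.

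Col28a1, a collagen of peripheral nerve, was at 0.381 to 1.32 CPM in Sham and at 23.4, 2.99, 6.86 and 12.1 in 5/6 Nx-HPi-Lp (3.80 ± 0.66, adjusted p = 0.0014). Levels of 1.25 to 5.54 CPM in 5/6 Nx-HPi-Hp overlapped those of 5/6 Nx-HPi-Lp (1.66 ± 0.63, adjusted p = 0.11), and 1.16 to 2.27 CPM in 5/6 Nx-LPi-Lp did not (2.58 ± 0.58, adjusted p = 0.016). Schwann cell markers were also higher than in Sham, with 6 of 6 called, and 0 of 6 were called by edgeR against either other group, where their median log2 fold changes were 0.99 (5/6 Nx-HPi-Hp) and 1.61 (5/6 Nx-LPi-Lp). Their part in the Col28a1 difference was not tested. The transmembrane collagen Col13a1 (3.17 ± 0.73) and the anchoring fibril collagen Col7a1 (1.18 ± 0.18) were called against Sham but not against the other groups (0.29 ± 0.63 and 1.22 ± 0.83; 0.17 ± 0.26 and 0.31 ± 0.15).

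The other nephrectomised groups were also set against Sham. In 5/6 Nx-HPi-Hp, 7 of 36 chains tested were higher and 0 lower (9.41% and 2.75% of all genes), namely Col2a1, Col11a1, Col11a2, Col6a5, Col7a1, Col13a1 and Col28a1, with a median of -0.18 on the log2 scale over the chains. DESeq2 also gave 0 lower, and at an unadjusted p under 0.05 in edgeR 17 of 36 passed in either direction beside 45.5% of all genes. With libraries scaled by total count (median of all genes -0.19) the split was 4 and 1. Leaving out Sham replicate 2 or 3 gave 4 higher, and without replicate 4 of 5/6 Nx-HPi-Hp 3 chains were lower, namely Col4a1 (-1.22), Col4a5 (-1.27) and Col6a6 (-1.13). Col11a1 was the chain with the largest of these fold changes (3.06 ± 0.73; 78 against 15 counts), and Col1a1 (0.08 ± 0.38) and Col3a1 (-0.19 ± 0.25) were not called. Col2a1, Col11a1, Col6a5, Col13a1 and Col28a1 passed the count filter here only with the 5/6 Nx-HPi-Hp libraries, so their place among the 7 is a description only. In 5/6 Nx-LPi-Lp, 1 of 36 was higher, Col28a1, and 1 lower, Col6a6 (8.79% and 2.08% of all genes), with a median of -0.36. Total count scaling, which put the median of all genes at -0.22, made this 0 and 9. Col28a1 passed the count filter here only with the 5/6 Nx-LPi-Lp libraries, so its call is a description only. That call ended on leaving out any of 6 libraries. Without replicate 4 of 5/6 Nx-LPi-Lp 6 chains were lower, with Col1a1, Col1a2, Col3a1, Col4a1 and Col4a5 added (-1.04 to -1.23). Col1a2 (-0.87 ± 0.20), Col3a1 (-0.89 ± 0.18) and Col4a1 (-0.88 ± 0.23) were below Sham in every 5/6 Nx-LPi-Lp library and passed the adjusted p but not the fold limit.

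The genes that process collagen were counted beside all genes tested. Of 37 genes for hydroxylation, glycosylation, folding, propeptide removal and cross-linking, 36 were tested against Sham, where 5 were higher and 3 lower (beside 15.0% and 7.18% of all genes) with a median log2 fold change of -0.01. Against 5/6 Nx-HPi-Hp the counts were 3 and 0 (median 0.26; 5.01% and 3.11% of all genes), and against 5/6 Nx-LPi-Lp 8 and 0 (median 0.38; 7.90% and 3.98% of all genes). P4ha3, a prolyl 4-hydroxylase subunit, had the largest rise among them, from 0.331 to 0.824 CPM in Sham to 3.07 to 27.7 in 5/6 Nx-HPi-Lp (4.62 ± 0.64, adjusted p = 4.1e-04), and was also called against the other groups (3.35 ± 0.94 and 4.26 ± 0.72). The cross-linking enzyme Loxl2 rose from 12.5 to 22.9 CPM to 48.6 to 139 (2.24 ± 0.38; 2.48 ± 0.46 and 2.89 ± 0.37 against the other groups), and Tll1, a procollagen C-proteinase, from 0.114 to 0.885 to 2.61 to 7.99 (3.08 ± 0.61). P3h2, a prolyl 3-hydroxylase of basement membrane collagens, fell from 16.4 to 26.3 CPM to 4.86 to 9.81 (-1.62 ± 0.24, adjusted p = 6.7e-04), as did Pcolce2 (-1.57 ± 0.18), an enhancer of procollagen C-proteinase, and Tmem38b (-1.09 ± 0.21). Serpinh1, the collagen chaperone, was not called, at 644 to 921 CPM in Sham and 283 to 1083 in 5/6 Nx-HPi-Lp (-0.49 ± 0.34), and was chosen for mention after its values were seen.

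Of 9 fibril-associated proteoglycans 8 were tested against Sham, and 1 was higher and 2 lower (beside 15.0% and 7.18% of all genes). Against 5/6 Nx-HPi-Hp the counts were 2 and 1 of 8 (5.01% and 3.11% of all genes). Against 5/6 Nx-LPi-Lp they were 2 and 2 of 8 (7.90% and 3.98% of all genes). Lum, which limits fibril width, rose from 60.2 to 108 CPM in Sham to 225 to 843 in 5/6 Nx-HPi-Lp (2.39 ± 0.36) and was 3.10 ± 0.45 and 3.13 ± 0.45 above 5/6 Nx-HPi-Hp and above 5/6 Nx-LPi-Lp. Ogn, another small leucine-rich proteoglycan, fell from 746 to 858 CPM to 50.4 to 92.6 (-3.50 ± 0.20, adjusted p = 1.2e-05) and was also lower against the other groups (-1.67 ± 0.40 and -1.84 ± 0.27). Of 10 receptor and uptake genes, 9 were tested against Sham with 2 higher and 2 lower (beside the same 15.0% and 7.18% of all genes). Against 5/6 Nx-HPi-Hp and against 5/6 Nx-LPi-Lp the counts were 2 and 0 of 9 each. Itga2, the integrin subunit that binds fibrillar collagen, rose by 3.03 ± 0.33, 2.27 ± 0.38 and 3.33 ± 0.52 in the 3 comparisons, and Itgb1, its partner subunit, was lower against Sham (-1.17 ± 0.15) and not called against the others (0.19 ± 0.38 and -0.02 ± 0.25).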

How the data were processed

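RNA from 16 mouse aortas was poly(A)-selected and sequenced. The authors aligned reads to mm10 with HISAT2, counted them per gene with featureCounts 1.5.0-p3 and computed FPKM. The deposited counts are raw whole numbers, and the authors' FPKM carry a scaling across samples, each denominator matching the DESeq2 size factor times the geometric mean total. The strand setting is not clear from the sources used here; exons of 13 of the 44 genes overlap another gene's, by at most 6.07% of their bases.

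Counts were tested with edgeR 4.0.16 (filterByExpr, TMM, quasi-likelihood, Benjamini-Hochberg) in R 4.3.3, on the 8 libraries compared, over all genes. CPM was used for 1 gene across libraries and FPKM between genes. The SE of a log2 fold change is its size divided by the square root of the F statistic of the quasi-likelihood test. Intervals and ratios of low counts cover counting error only. The labels number the animals within each group, and p-values measure the spread between these mice. Other settings tried were RLE or total counts for scaling, DESeq2 1.42.0, limma 3.58.1 on log2(FPKM + 1) and log2(FPKM + 0.1), other filters, a fit of all 16 libraries, a replicate block, leaving out mitochondrial genes, no fold limit and each library left out. Tests were tested on simulated data. Figures used matplotlib 3.10.9.

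Members and lists were chosen with earlier results of these data known. Named were the 8 chains of highest mean FPKM, the 5 highest and 5 lowest called in each of the 3 comparisons (18 in all), the 9 other chains of those collagens by fold change, and from each other list the called gene with the largest rise and fall in each comparison; Col12a1, Col14a1, Col15a1, Col16a1, Col7a1, Col13a1 and Col27a1 were named outside this rule after their values were seen.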

Additional observations from a re-analysis of the deposited data

Results flagged for a closer look

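In 5/6 Nx-HPi-Lp, 1 library was far from the other 3 of its group for 2 of the chains named. Col11a1 was at 40.9 CPM in replicate 2, against 10.4 to 10.8 CPM in the other 3. Col2a1 was at 31.4 CPM in replicate 4, against 1.18 to 5.44 CPM in the other 3. These came from 67 groups of 4 libraries examined, and chance marks about 1 group in 20 in this way. Without the library concerned, Col11a1 was still 6.06 above Sham and Col2a1 1.88 on the log2 scale.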

How the results depend on the processing

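Over the 27 chains named, 2274 of 2465 recomputed fold changes kept their call or their lack of one. Of the rest 136 lost the call and 55 gained one, and 0 calls reversed. Fold changes that were not called could change sign, as for Col4a1 against Sham (-0.43 to 0.10 with 1 library left out). Limma on log2(FPKM + 1) gave 9 higher and 3 lower chains against Sham (8 and 3 without a filter). The same without a filter gave 2 higher against 5/6 Nx-HPi-Hp and 7 higher and 0 lower against 5/6 Nx-LPi-Lp. Adding 1 shrinks the changes of low genes by construction. Against 5/6 Nx-HPi-Hp the lower calls were 2 by DESeq2 and with all 16 libraries in one fit, and 1 with no count filter, with at least 10 counts in every library or with no fold limit. Against 5/6 Nx-LPi-Lp there were 0 lower with total count scaling, limma on log2(FPKM + 1) or mitochondrial genes left out, and 2 with no fold limit. For 5/6 Nx-HPi-Hp against Sham, the calls were 4 higher and 1 lower with total count scaling, 0 and 1 with limma on log2(FPKM + 1), 1 and 1 with log2(FPKM + 0.1), 0 higher without a filter, 4 higher with at least 10 counts and 2 lower with no fold limit. For 5/6 Nx-LPi-Lp against Sham they were 0 and 9 with total count scaling, 2 and 2 by DESeq2, 0 and 0 with limma on log2(FPKM + 1) with or without a filter, 0 and 2 with log2(FPKM + 0.1) or no count filter, 0 higher with 16 libraries and 4 and 11 with no fold limit. With CPM in place of FPKM the fibrillar share was 40.5% in Sham, 44.3% in 5/6 Nx-HPi-Hp and 38.3% in 5/6 Nx-LPi-Lp. These values alone do not compare 5/6 Nx-HPi-Lp with the other groups on that scale. The cause of these moves was not tested beyond what the settings themselves change.

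Leaving out 1 library at a time gave 14 to 18 higher and 5 to 7 lower against Sham, 5 to 10 and 0 to 1 against 5/6 Nx-HPi-Hp, and 11 to 15 and 0 to 2 against 5/6 Nx-LPi-Lp. For 5/6 Nx-HPi-Hp against Sham the ranges were 4 to 8 and 0 to 3, and for 5/6 Nx-LPi-Lp against Sham 0 to 2 and 1 to 6. Leaving out replicates 2 and 3 of 5/6 Nx-HPi-Lp together gave 17 and 7 against Sham, 5 and 0 against 5/6 Nx-HPi-Hp and 12 and 1 against 5/6 Nx-LPi-Lp.

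Replicates share only a number, since the deviations of same-numbered libraries correlated at -0.06 to 0.10 in the comparison with Sham and at -0.27 to 0.19 over all 5 comparisons. With a replicate block the higher and lower calls were 14 and 6 against Sham, 5 and 0 against 5/6 Nx-HPi-Hp, 10 and 0 against 5/6 Nx-LPi-Lp, 5 and 1 for 5/6 Nx-HPi-Hp against Sham, and 0 and 3 for 5/6 Nx-LPi-Lp against Sham. Counting error limits the chains with few counts, among them Col24a1 and Col19a1.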
